A study of Homo sapiens with 36 samples.

Results

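A set of 10 genes of the cell death machinery at the plasma membrane were followed: the receptors TNFRSF10A, TNFRSF10B, TNFRSF10D and FAS, the adaptor FADD, the protease CASP8, its regulator CFLAR, and the inhibitors of apoptosis BIRC2, BIRC3 and XIAP. They were taken by symbol from the count table, where 10 of 10 were found among 61544 genes, and all 10 passed the filter on low counts, as did 20767 genes in all. TNFRSF10A and TNFRSF10B are the death receptors for the ligand TRAIL, TNFRSF10D binds TRAIL without passing on a full death signal, and FAS is the receptor for FAS ligand. Bound receptors recruit FADD, which brings in pro-caspase-8 for activation, and CFLAR (FLIP) competes with it for a place in that complex. BIRC2 and BIRC3 (cIAP1 and cIAP2) are ubiquitin ligases that keep receptor complexes in a survival state and restrain the noncanonical branch of NF-kB, and XIAP binds and blocks active caspases.

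The RNA came from MIA PaCa-2, a human pancreatic carcinoma cell line with a destabilised SKI complex, the machinery that feeds faulty messenger RNA into the exosome. Each line carried Cas9 under a doxycycline-inducible system with 1 of 3 guides: a non-targeting guide (NTC, the control line), a guide to PELO, or a guide to HBS1L, which encode partners in a factor that frees stalled ribosomes. Cells of each line were grown in medium with tetracycline-free serum, with 2 µg/mL doxycycline (dox) or without it, for 48 h or 96 h, so the control line with dox also made Cas9. That gave 12 groups of 3 libraries of polyadenylated RNA, 36 in all. Nothing in the labels says whether a line is 1 clone or whether the 3 replicates were separate cultures, and the p-values therefore cover no more than library-to-library spread, which may be technical.

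Libraries held 45356024 to 107436235 counts. The deepest was replicate 2 of the PELO line with dox at 96 h. HBS1L fell with dox in its own line, from 105 ± 1.75 to 36.2 ± 0.899 CPM (read counts scaled to a common library total, mean ± SD, n = 3) at 48 h. PELO changed less in its own line, where it fell at 48 h from 25.2 ± 1.33 to 20.7 ± 0.404 CPM (-0.29 ± 0.056 (adjusted p = 5.01e-05)) and at 96 h held 29.1 ± 1.99 CPM without dox and 28.3 ± 1.46 CPM with dox. It also fell at 48 h in the control line (-0.16 ± 0.055 (adjusted p = 0.022)) and the HBS1L line (-0.20 ± 0.054 (adjusted p = 0.00668)), so its messenger RNA is a weak check of the label. The cytokeratins KRT8 and KRT18 were abundant (KRT18 at 1553 ± 71.99 CPM in the untreated control line at 48 h). Over all libraries KRT19 had a mean of 224 CPM and KRT7 one of 0.464 CPM. The epithelial markers EPCAM and CDH1 never passed 3 counts in any library. VIM, a mesenchymal marker known of MIA PaCa-2, held 7086 to 8949 CPM. Of 4 epithelial markers tested (6 listed), whose sum ranged from 1516 to 4092 CPM over the libraries, 3 fell and 1 rose in PELO cells given dox for 96 h (median log2 change -0.97), among them KRT18 (-1.01 ± 0.054 (adjusted p = 9.72e-19)). Of 4 leukocyte and 4 endothelial markers, 2 in each list never passed 3 counts in any library, while COL1A2, CDH5 and CD14 were measurable and fell with dox in the PELO line, to 30.7 ± 2.01, 0.975 ± 0.288 and 0.547 ± 0.173 CPM at 96 h. The summed level ranged from 0.497 to 8.48 CPM for the leukocyte list, 0.832 to 40.7 CPM for the endothelial list and 29.4 to 249 CPM for the 5 fibroblast markers. Their part in the results was not tested, and in bulk RNA fewer cells of a type cannot be told apart from less RNA per cell. Libraries of the 48 h and 96 h samples carry numbers from separate blocks, so a difference in level between the 2 times cannot be told apart from one of batch; changes were computed within a time.

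The members fall in 6 places of the genome (GENCODE 29 on GRCh38). The TRAIL receptor genes lie within 204994 bases of each other on the - strand of chromosome 8, with TNFRSF10B (ENSG00000120889.13) at 23020133 to 23069179, TNFRSF10D (ENSG00000173530.6) at 23135588 to 23164030 and TNFRSF10A (ENSG00000104689.10) at 23190452 to 23225126. CFLAR (ENSG00000003402.21) and CASP8 (ENSG00000064012.24) share a stretch of chromosome 2, and BIRC3 (ENSG00000023445.16) and BIRC2 (ENSG00000110330.10) one of chromosome 11. The remaining genes stand alone, FAS (ENSG00000026103.24) at 88990582 to 89015785 on the + strand of chromosome 10, FADD (ENSG00000168040.5) at 70203163 to 70207390 on the + strand of chromosome 11, and XIAP (ENSG00000101966.13) at 123859724 to 123913979 on the + strand of chromosome X.

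In the untreated groups at 48 h the TRAIL receptor TNFRSF10B was the member with the highest level per kb of merged exons. In the untreated control line at 48 h it lay at 34.9 CPM per kb of merged exons, against 16.5 for FADD, 14.7 for BIRC2, 10.8 for TNFRSF10D, 9.68 for TNFRSF10A, 9.23 for XIAP, 8.29 for CASP8 and 4.18 for BIRC3. FAS was the lowest at 1.01 CPM per kb. At 96 h FADD stood above TNFRSF10B on this measure in every untreated line. The values were 23.3 against 18.3 CPM per kb in the control line, 20.6 against 18.6 in the PELO line and 21.4 against 18.9 in the HBS1L line. The places of CFLAR and CASP8 depend on the length used. The many transcripts of CFLAR cover 22.5 kb of merged exons, and it lay at 5.41 CPM per kb on that length and at 74.05 CPM per kb of its median coding transcript, the highest of the 10 on that measure, where CASP8 lay at 31.5. Every member was counted well above the noise of counting, and the fewest reads for any of them in a library were 195, for FAS.

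**Figure D1:**
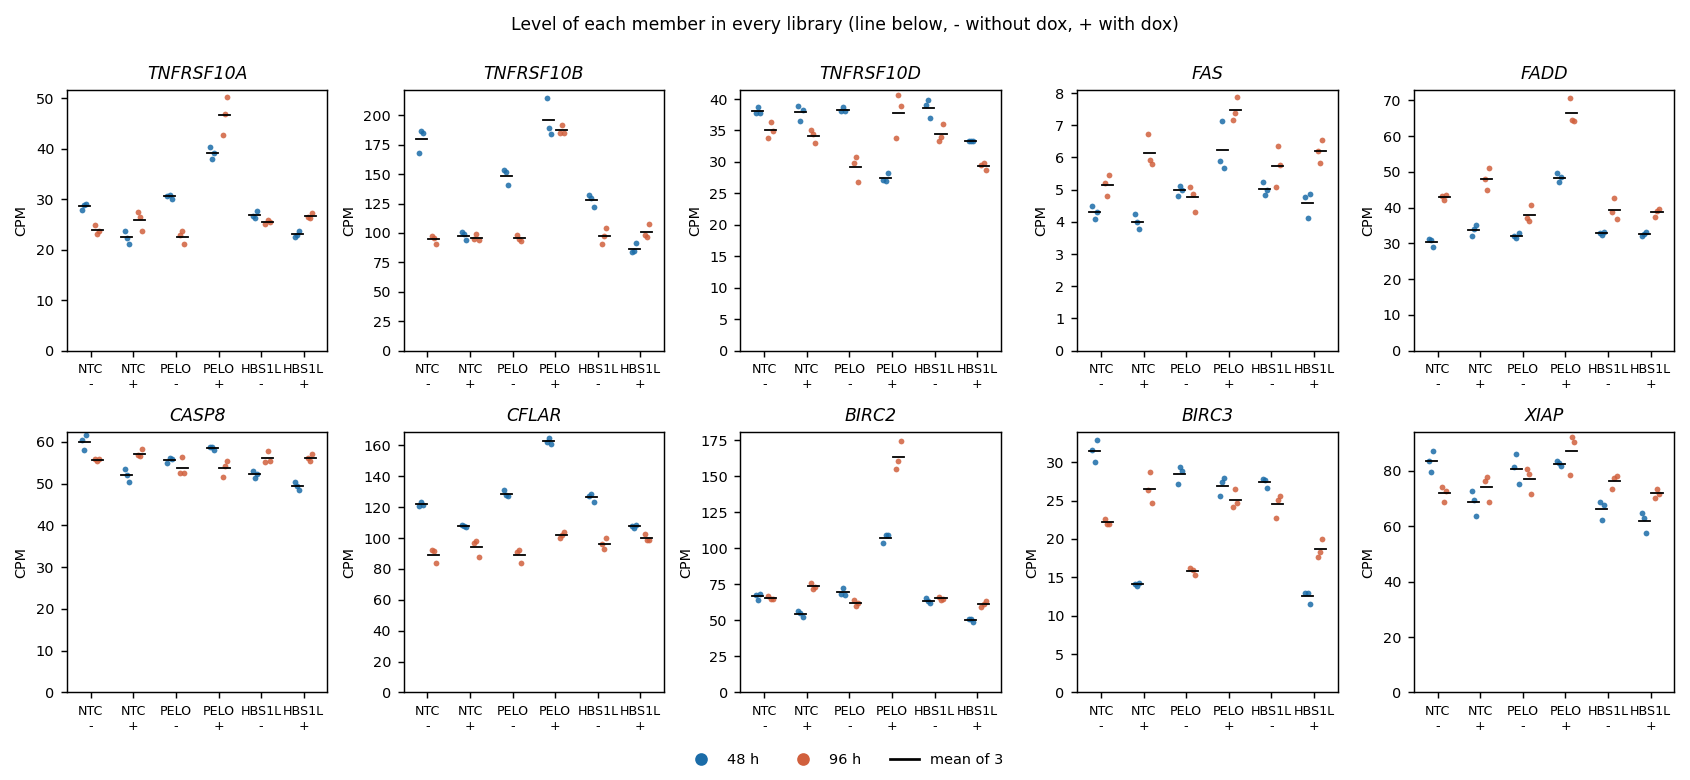
Level of each of the 10 members in CPM (vertical axes from 0) in every library, by line and dox, with 48 h in blue, 96 h in orange and a bar at the mean of 3 libraries. TNFRSF10A, FADD and BIRC2 stand highest in both dox groups of the PELO line, and BIRC3 stands lowest in the dox groups of the control and HBS1L lines at 48 h.

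At 48 h most members fell with dox in the control and HBS1L lines, and most rose in the PELO line. Counts use edgeR's quasi-likelihood test with Benjamini-Hochberg adjustment over 20767 genes at 0.05, and each stands beside the share of all genes that passed in the same direction. With dox at 48 h 7 members fell in the control line (16.0% of all genes) and 1 rose (19.0%), whereas in the PELO line 6 rose (24.2%) and 1 fell (23.7%). At 96 h 9 members rose in the PELO line (34.4%), and BIRC2 and BIRC3 rose in the control line (3.89%), where FADD missed the threshold. Those of the HBS1L line fell in 6 cases at 48 h (11.4%) and 2 at 96 h (8.90%). In both directions together 35.0% of genes passed in the control line at 48 h and 7.52% at 96 h, 48.0% and 66.8% in the PELO line, and 21.5% and 19.9% in the HBS1L line. The median log2 change of the 10 members was -0.24 in the control line at 48 h, 0.33 and 0.66 in the PELO line at 48 h and 96 h, and -0.22 and -0.011 in the HBS1L line, while the median over all genes lay between -0.020 and 0.017 in these 5 comparisons. In the PELO line 7 and 9 of 10 members passed, and with this much of the transcriptome moving, a call for a single member is common.

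**Figure D2:**
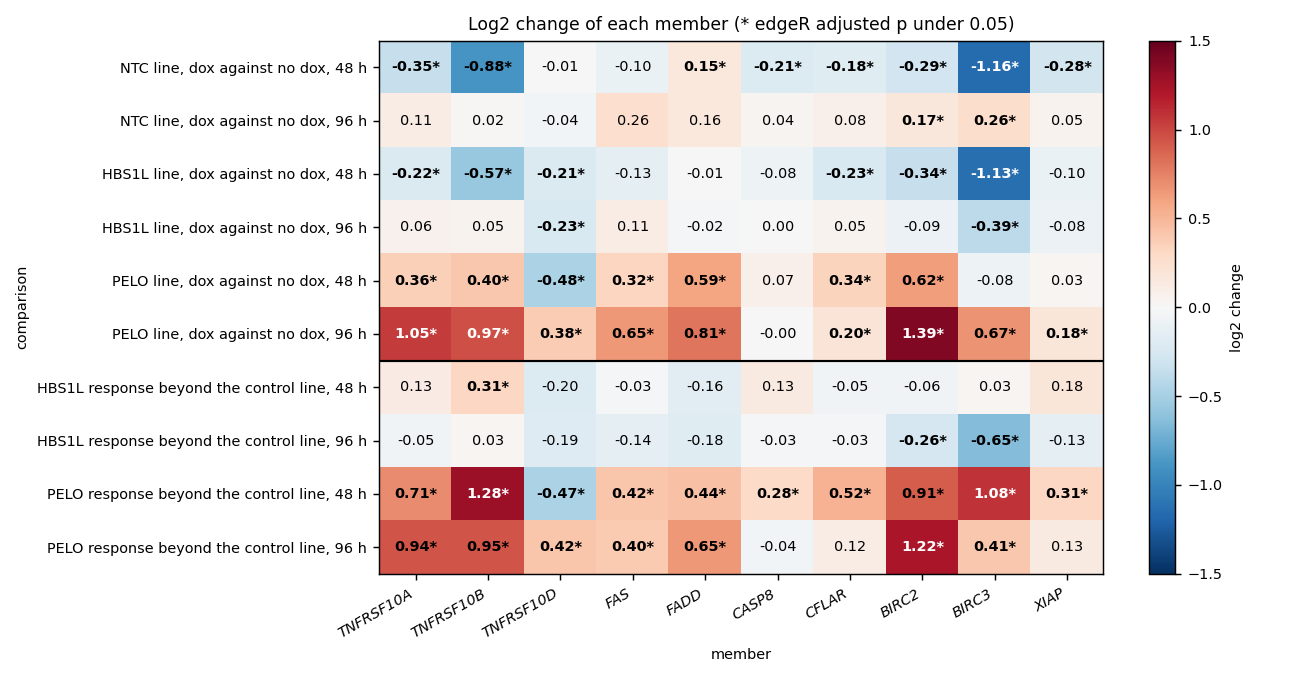
Log2 change of each member (columns) in 10 comparisons (rows), as colour and number, with * where the edgeR adjusted p was under 0.05; the last 4 rows subtract the change of the control line. For most members blue in the control and HBS1L rows at 48 h faces red in the PELO rows. At 48 h TNFRSF10D is blue in the PELO row and FADD red in the control row. The fall of BIRC3 at 48 h was -1.16 in the control line and -1.13 in the HBS1L line.

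TNFRSF10B, a death receptor for TRAIL, fell with dox in the control and HBS1L lines at 48 h and rose in the PELO line at both times. At 48 h it lay at 168, 187 and 185 CPM in the untreated control libraries and at 100.4, 98.8 and 93.9 CPM in those with dox. The PELO line held 154, 152 and 140.5 CPM without dox and 215, 189 and 184 CPM with dox. All 3 dox libraries of the control line lay under, and all 3 of the PELO line over, the untreated libraries of their own line. The HBS1L line held 133, 130.2 and 122 CPM without dox and 83.99, 84.4 and 91.4 CPM with it. The log2 changes were -0.88 ± 0.055 (adjusted p = 1.41e-15) in the control line, 0.40 ± 0.055 (adjusted p = 1.14e-07) in the PELO line and -0.57 ± 0.055 (adjusted p = 3.84e-10) in the HBS1L line. Most of the PELO response beyond that of the control line, 1.28 ± 0.078 (adjusted p = 2.98e-16) at 48 h, is thus the fall in the control line, which the PELO line did not share. At 96 h control libraries held 97.6, 95.9 and 90.4 CPM without dox and 95.04, 98.9 and 94.4 CPM with it, and the HBS1L line 90.8, 97.1 and 104 and 98.5, 96.6 and 108 CPM. These groups overlap. The PELO line went from 98.5, 95.2 and 93.4 CPM to 185, 192 and 185 CPM, a log2 change of 0.97 ± 0.055 (adjusted p = 7.18e-18) or 1.96-fold, and its dox libraries stood clear of every other library of that time. The 5 other groups at 96 h had means between 94.6 and 101.0 CPM, and none of the tests run between them passed. In the HBS1L line the response beyond the control line at 48 h was 0.31 ± 0.078 (adjusted p = 0.0133). That call was lost without replicate 3 of the control line with dox (adjusted p = 0.0501) or of the HBS1L line with dox (0.0559), and with the dox libraries alone the difference turned to -0.17 (adjusted p = 0.0207).

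TNFRSF10A, the other TRAIL death receptor, followed the same course with smaller changes at 48 h. The untreated and dox libraries of the PELO line held 30.7, 30.8 and 30.1 and 40.4, 37.98 and 39.2 CPM at 48 h. At 96 h they held 22.9, 23.6 and 21.1 and 42.7, 46.9 and 50.1 CPM. The 6 dox libraries of the PELO line were the 6 highest of all 36, and the highest library outside them held 30.8 CPM. The change in the PELO line was 0.36 ± 0.053 (adjusted p = 4.71e-07) at the first time and 1.05 ± 0.053 (adjusted p = 2.44e-19) at the second, 2.07-fold. The control line fell at 48 h from 28.6 ± 0.658 to 22.4 ± 1.29 CPM, -0.35 ± 0.054 (adjusted p = 2.78e-06), and at 96 h held 23.9 ± 0.854 and 25.8 ± 1.96 CPM, 0.11 ± 0.054 (adjusted p = 0.214). Beyond the control line the PELO response was 0.71 ± 0.076 (adjusted p = 7.22e-10) and 0.94 ± 0.076 (adjusted p = 3.72e-13).

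TNFRSF10D, the TRAIL receptor with a truncated death domain, was the member that passed the test in opposite directions in the PELO line at the 2 times. At 48 h it fell there from 38.1, 38.7 and 38.04 CPM to 27.1, 26.9 and 28.3 CPM, and the dox libraries lay under every other 48 h library. At 96 h it rose from 29.8, 30.8 and 26.8 CPM to 33.9, 40.7 and 38.9 CPM. The log2 changes were -0.48 ± 0.053 (adjusted p = 1.17e-09) and 0.38 ± 0.052 (adjusted p = 4.24e-08), and their difference was 0.86 ± 0.074 (adjusted p = 6.87e-12). The rise at 96 h started from an untreated PELO line that was lower than the untreated control line (log2 difference -0.27 ± 0.052, adjusted p = 0.000242), and the dox libraries of the PELO line (37.8 ± 3.55 CPM) lay near those of the control line (34.2 ± 1.13 CPM). The control line did not pass the test at 48 h (-0.0098 ± 0.052 (adjusted p = 0.91)) or 96 h (-0.036 ± 0.052 (adjusted p = 0.743)). In the HBS1L line TNFRSF10D fell at both times, with log2 changes of -0.21 ± 0.051 (adjusted p = 0.00209) and -0.23 ± 0.052 (adjusted p = 0.00151), with non-overlapping libraries, and the differences from the change of the control line missed the threshold (-0.20 ± 0.073 (adjusted p = 0.12) and -0.19 ± 0.073 (adjusted p = 0.086)). Comparing dox libraries alone, TNFRSF10D was lower in the HBS1L than the control line by -0.18 (adjusted p = 0.00939) at 48 h, and the 96 h libraries gave -0.22 (adjusted p = 0.00145).

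FAS was the least abundant member, between 3.77 and 7.88 CPM. The PELO line held 4.82, 5.13 and 4.99 CPM without dox and 5.88, 7.13 and 5.68 CPM with dox at 48 h. Its 96 h libraries held 5.096, 4.87 and 4.301 CPM and 7.16, 7.37 and 7.88 CPM. The dox libraries were above the untreated ones at both times. The changes were 0.32 ± 0.090 (adjusted p = 0.00317) and 0.65 ± 0.087 (adjusted p = 2.72e-08). Without replicate 2 of the PELO line with dox at 48 h, its highest library of that time, the adjusted p at 48 h became 0.0751. The responses beyond the control line were 0.42 ± 0.13 (adjusted p = 0.00786), with an adjusted p of 0.0583 without that library, and 0.40 ± 0.12 (adjusted p = 0.00651). At 96 h FAS also lay higher with dox in the control line (5.14 ± 0.331 and 6.15 ± 0.511 CPM), a difference that did not pass the test (0.26 ± 0.088 (adjusted p = 0.0665)). Exons of ACTA2 on the other strand overlap 8.93% of the exonic length of FAS. ACTA2 had its highest group mean, 3.95 CPM, in the PELO line with dox at 96 h, against 1.79 CPM without dox, and its part in the FAS values was not tested.

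FADD, the adaptor that links receptors to caspase-8, rose in the PELO line at both times. Untreated libraries held 31.99, 31.4 and 32.97 CPM and dox libraries 49.8, 47.03 and 48.4 CPM at 48 h. Those of 96 h held 37.1, 36.2 and 40.6 CPM and 70.8, 64.5 and 64.1 CPM. No library of another group of the same time reached the levels with dox. The log2 changes were 0.59 ± 0.053 (adjusted p = 8.82e-12) and 0.81 ± 0.052 (adjusted p = 2.27e-16), or 1.51- and 1.75-fold, and beyond the control line 0.44 ± 0.075 (adjusted p = 7.14e-06) and 0.65 ± 0.073 (adjusted p = 1.29e-09). The HBS1L line held 39.4 ± 3.01 CPM without dox and 38.7 ± 1.22 CPM with dox at 96 h, -0.025 ± 0.053 (adjusted p = 0.801). FADD in the control line at 96 h held 42.98 ± 0.774 CPM without and 47.97 ± 3.09 CPM with dox, without overlap. That difference missed edgeR's threshold (0.16 ± 0.052 (adjusted p = 0.0541)) and passed with DESeq2 (adjusted p = 0.0346) and limma (0.0443). In the control line FADD was the only member to rise at 48 h, 0.15 ± 0.054 (adjusted p = 0.0244), a call that was lost without replicate 3 of the untreated libraries (adjusted p = 0.131), or without replicate 2 (0.0589) or 3 (0.119) of the dox libraries. An antisense transcript, AP000879.1, overlaps 54.9% of the exonic length of FADD. It was counted at 0.0625 to 0.342 CPM in group means, and whether reads were assigned by strand is not given in the sources used here.

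CASP8, the initiator protease of the receptor complex, was the steadiest member, with group means between 49.4 and 60.1 CPM. In the PELO line it lay at 52.5, 56.3 and 52.5 CPM without dox and 51.5, 54.2 and 55.3 CPM with dox at 96 h, and these libraries overlap. The change was -0.0011 ± 0.037 (adjusted p = 0.982) at this time, after 0.074 ± 0.037 (adjusted p = 0.1) at 48 h. In the control line at 48 h CASP8 fell from 60.1 ± 1.896 to 51.98 ± 1.501 CPM, -0.21 ± 0.037 (adjusted p = 2.31e-05), so the PELO response beyond the control line, 0.28 ± 0.052 (adjusted p = 2.43e-05), again reflects a fall that the PELO line did not share. CFLAR, which holds caspase-8 in check, rose in the PELO line at 48 h from 131, 128 and 127 CPM to 162, 165 and 161 CPM. Those 3 dox libraries were the highest of all 36. The change was 0.34 ± 0.041 (adjusted p = 7.75e-09), against falls of -0.18 ± 0.041 (adjusted p = 0.000593) in the control line and -0.23 ± 0.041 (adjusted p = 4.05e-05) in the HBS1L line. At 96 h CFLAR rose less, from 90.7, 92.2 and 83.7 CPM to 100.05, 102 and 104 CPM, 0.20 ± 0.041 (adjusted p = 6.50e-05), and beyond the control line this was 0.12 ± 0.058 (adjusted p = 0.092). Counts per gene do not separate the long and short forms of CFLAR. The pair lies side by side on chromosome 2 (GENCODE 29 on GRCh38), CFLAR at 201116104 to 201176687 and CASP8 at 201233443 to 201287711, both on the + strand.

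BIRC2 and BIRC3 are neighbours too, on chromosome 11 and on the + strand, with BIRC3 at 102317450 to 102339403 and BIRC2 at 102347211 to 102378670, 7807 bases apart (GENCODE 29 on GRCh38). They encode near relatives, and their log2 changes with dox differed. The stretch before the first exon of each is printed from RefSeq (GRCh38.p14, + strand, 5′ to 3′), with matches to the kappaB consensus in capitals. Its part in those changes was not tested. BIRC3 is a well-known target of NF-kB, which binds such sites.
BIRC3, chr11:102317234-102317449: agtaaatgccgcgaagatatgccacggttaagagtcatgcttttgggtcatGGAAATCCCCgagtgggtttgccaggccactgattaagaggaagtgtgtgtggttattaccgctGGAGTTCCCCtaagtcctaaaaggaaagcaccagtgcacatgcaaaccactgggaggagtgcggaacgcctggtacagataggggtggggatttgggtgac
BIRC2, chr11:102346964-102347210: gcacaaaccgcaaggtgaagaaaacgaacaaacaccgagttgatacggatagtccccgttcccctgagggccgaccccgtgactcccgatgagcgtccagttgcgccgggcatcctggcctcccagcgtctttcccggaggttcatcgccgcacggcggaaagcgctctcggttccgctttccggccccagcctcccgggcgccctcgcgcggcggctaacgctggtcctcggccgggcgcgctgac
The BIRC3 window of 250 bases holds 2 matches, at positions -199 and -135 from the RefSeq start site, which for both genes lies downstream of the GENCODE one, and the BIRC2 window holds 0. Among 35114 promoter windows of that length, searched on both strands, 5.21% held at least 1 match to the kappaB consensus. An AP-1 site (TGANTCA) was found in 6.57%, a cAMP response element (TGACGTCA) in 1.65% and an ATF4-CEBP composite (TGATGNAA) in 3.14% of them, and none of the 4 motifs contains another. The printed windows of BIRC3 and BIRC2 hold none of these 3 in full. A window before another RefSeq start of BIRC2 holds 1 cAMP response element, at position -167 from that start. The printed BIRC2 window and stretch both end inside this same element, so its absence from them reflects where they were cut. The table covered 7 of the 10 members in 17 windows, and of the others CFLAR and FAS each had 1 window with a kappaB match. A match describes letters in the window and says nothing on its own about binding.

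BIRC2 had the largest rise of the members in the PELO line. Its libraries at 48 h held 68.6, 72.5 and 67.8 CPM untreated and 104, 109 and 109 CPM with dox. By 96 h the values were 64.4, 60.2 and 62.1 CPM untreated and 155, 161 and 174 CPM with dox. No library outside the 6 with dox was above 75.7 CPM. The changes were 0.62 ± 0.043 (adjusted p = 1.18e-14) and 1.39 ± 0.044 (adjusted p = 1.86e-25), or 1.54- and 2.62-fold. In the control line BIRC2 fell at 48 h from 67.4, 63.98 and 68.4 CPM to 56.5, 54.98 and 52.4 CPM, -0.29 ± 0.044 (adjusted p = 2.24e-06). In the HBS1L line it fell from 65.3, 63.4 and 62.1 CPM to 50.7, 51.2 and 48.6 CPM, -0.34 ± 0.044 (adjusted p = 1.67e-07). At 96 h the control line rose slightly, from 67.1, 64.5 and 64.7 CPM to 75.7, 71.6 and 73.3 CPM, 0.17 ± 0.043 (adjusted p = 0.0141), and this call was lost without replicate 2 of the untreated libraries (adjusted p = 0.0914) or replicate 1 of the dox libraries (0.0641). The HBS1L line held 66.2, 64.4 and 65.1 CPM and 59.1, 61.3 and 63.8 CPM. Beyond the control line BIRC2 rose in the PELO line by 0.91 ± 0.062 (adjusted p = 6.84e-15) and 1.22 ± 0.061 (adjusted p = 8.45e-19). The HBS1L line gave -0.057 ± 0.062 (adjusted p = 0.717) at 48 h and a fall, -0.26 ± 0.062 (adjusted p = 0.00516), at 96 h.

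BIRC3 showed the largest fall of the members, and it came with dox in the lines whose guide was not to PELO. At 48 h the control line went from 31.6, 29.97 and 32.9 CPM to 14.1, 13.9 and 14.2 CPM. The HBS1L line went from 27.8, 27.7 and 26.6 CPM to 13.01, 13.01 and 11.5 CPM. In both lines dox libraries held less than any untreated library. The PELO line held 27.2, 29.4 and 28.8 CPM without dox and 25.6, 27.4 and 27.9 CPM with it, which overlap. The log2 changes were -1.16 ± 0.059 (adjusted p = 3.19e-18), -1.13 ± 0.059 (adjusted p = 2.12e-17) and -0.079 ± 0.057 (adjusted p = 0.264) in that order, so BIRC3 fell to 0.45 of its untreated level in the control line and to 0.46 in the HBS1L line. The PELO response beyond the control line, 1.08 ± 0.082 (adjusted p = 1.44e-13), was thus made up by the fall in the control line. At 96 h control libraries held 22.7, 21.99 and 21.9 CPM and, with dox, 26.3, 28.7 and 24.7 CPM, a rise of 0.26 ± 0.057 (adjusted p = 0.00356). The HBS1L line fell from 22.8, 25.1 and 25.6 CPM to 17.7, 18.3 and 20.01 CPM, -0.39 ± 0.058 (adjusted p = 4.51e-06), and beyond the control line by 0.65 on the log2 scale (adjusted p = 5.25e-07). The PELO line rose from 16.2, 15.99 and 15.3 CPM to 24.2, 26.4 and 24.7 CPM, 0.67 ± 0.058 (adjusted p = 1.14e-12). Its untreated libraries were the lowest untreated ones of that time, with a log2 difference of -0.49 ± 0.059 (adjusted p = 1.42e-07) from the control line. With dox the PELO and control lines were close, and the response beyond the control line, 0.41 ± 0.082 (adjusted p = 5.03e-05), became -0.077 (adjusted p = 0.235) when only dox libraries were compared.

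XIAP, the direct inhibitor of caspases, varied least among the IAP genes, with group means from 61.8 to 87.0 CPM. In the control line it fell at 48 h from 83.5, 79.4 and 87.1 CPM to 72.7, 69.4 and 63.8 CPM, -0.28 ± 0.061 (adjusted p = 0.000347). In the PELO line it held 80.8 ± 5.46 and 82.6 ± 0.774 CPM at 48 h, 0.032 ± 0.061 (adjusted p = 0.708). At 96 h it went there from 80.5, 78.7 and 71.5 CPM to 78.5, 92.2 and 90.3 CPM, 0.18 ± 0.060 (adjusted p = 0.00882). Those groups overlap, and the call was lost without replicate 3 of the untreated libraries (adjusted p = 0.126) or without replicate 2 (0.132) or 3 (0.0781) of the dox libraries. Beyond the control line XIAP passed at 48 h (0.31 ± 0.086 (adjusted p = 0.00273)) and missed the threshold at 96 h (0.13 ± 0.085 (adjusted p = 0.2)), where the comparison of dox libraries alone gave 0.23 (adjusted p = 0.00108).

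With the change of the control line subtracted, all 10 members passed in the PELO line at 48 h, 9 upward and TNFRSF10D downward, where 47.9% of all genes passed (22.9% upward and 24.9% downward). At 96 h 7 members passed, all upward, beside 54.8% of all genes (28.7% upward), and CASP8, CFLAR and XIAP did not. Those 3 passed when dox libraries alone were compared, CASP8 at -0.090 (adjusted p = 0.0307), CFLAR at 0.11 (adjusted p = 0.0183) and XIAP at 0.23 (adjusted p = 0.00108). The share of all genes that passed in that setting is not given here. The median over the members was 0.48 at 48 h and 0.41 at 96 h, beside -0.040 and 0.018 over all genes. In the HBS1L line 1 member rose at 48 h (1.41% of all genes rose, and 3.85% passed either way), and 2 fell at 96 h (5.32% fell, and 10.7% passed), BIRC2 and BIRC3. With dox libraries alone the HBS1L line was also called lower for TNFRSF10D at both times, for BIRC2 (-0.12, adjusted p = 0.0394) and BIRC3 (-0.17, adjusted p = 0.0407) at 48 h, and for FADD at 96 h (-0.31, adjusted p = 1.99e-05). Many more of all genes passed in that setting at both times (counts in the last paragraph), so the shares above do not apply to these calls. Because both targeted lines were set against the same control libraries, the lines were compared directly. The PELO response exceeded the HBS1L response for 8 members at 48 h (21.9% of all genes) and was under it for TNFRSF10D (21.3%), and at 96 h it exceeded it for 9 members (29.1%). The largest of these differences were 1.05 ± 0.082 (adjusted p = 4.69e-13) for BIRC3 at 48 h and 1.48 ± 0.061 (adjusted p = 6.68e-21) for BIRC2 at 96 h. XIAP at 48 h (0.13 ± 0.086 (adjusted p = 0.228)) and CASP8 at 96 h (-0.0028 ± 0.052 (adjusted p = 0.97)) did not pass. The smallest called differences rested on single libraries. CASP8 at 48 h (0.15 ± 0.052 (adjusted p = 0.0166)) was lost without replicate 1 of either untreated line or 3 of the HBS1L line with dox (adjusted p from 0.0533 to 0.0553). XIAP at 96 h (0.26 ± 0.085 (adjusted p = 0.00827)) was lost without replicate 3 of the untreated or 2 of the dox libraries of the PELO line (0.0587 to 0.0639). CFLAR at 96 h (0.14 ± 0.058 (adjusted p = 0.0333)) was lost in 10 of 12 fits, all but those without replicate 2 of either untreated line (0.0528 to 0.242), and limma gave 0.0931.

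**Figure D3:**
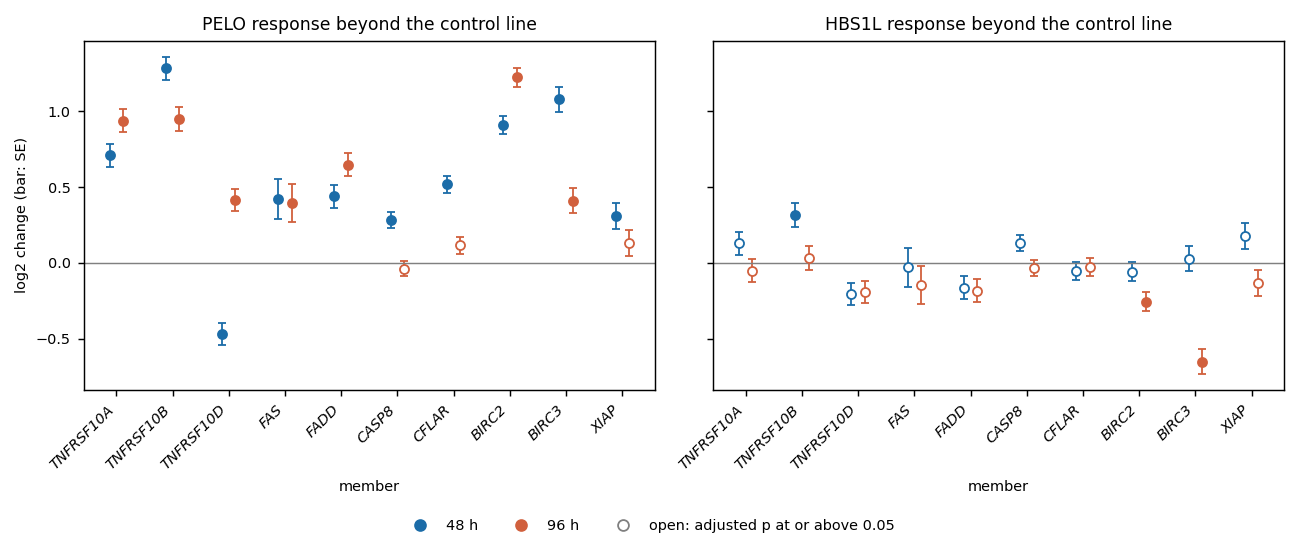
Log2 change beyond the control line for each member in the PELO line (left) and the HBS1L line (right), with 48 h in blue, 96 h in orange, bars of 1 SE and open circles where the edgeR adjusted p was at or above 0.05. In the PELO line BIRC2 reached 1.22 at 96 h and TNFRSF10B 1.28 at 48 h, and TNFRSF10D lay on opposite sides of 0 at the 2 times.

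The balance between related or opposed members was also read within each library, as a ratio of CPM and without a test. BIRC2 over BIRC3 at 48 h rose with dox from 2.12 ± 0.0312 to 3.88 ± 0.175 in the control line. The PELO line went from 2.45 ± 0.0879 to 3.99 ± 0.0769, and the HBS1L line from 2.32 ± 0.0336 to 4.02 ± 0.169. The ratio thus came to nearly the same value in all 3 lines, although BIRC2 itself rose in the PELO line and fell in the others. At 96 h it was 2.95 ± 0.0148 and 2.78 ± 0.2502 in the control line, and 3.93 ± 0.149 and 6.51 ± 0.497 in the PELO line, whose untreated libraries already stood above those of the control line. The ratio of the death receptor TNFRSF10B to TNFRSF10D fell in the control line at 48 h, from 4.73 ± 0.238 to 2.58 ± 0.128, and rose in the PELO line from 3.88 ± 0.174 to 7.15 ± 0.715. In the HBS1L line it fell at 48 h from 3.32 ± 0.0649 to 2.60 ± 0.124. At 96 h it rose in the PELO line from 3.29 ± 0.195 to 4.98 ± 0.422. The HBS1L line also rose then, from 2.82 ± 0.0899 to 3.44 ± 0.276, and the control line held 2.70 ± 0.158 and 2.81 ± 0.0940. TNFRSF10A over TNFRSF10D in the PELO line was 0.798 ± 0.00691 without and 1.43 ± 0.05397 with dox at 48 h, then 0.774 ± 0.0107 without and 1.23 ± 0.0728 with dox at 96 h, and no other group had a mean above 0.906. CFLAR over CASP8 was highest in the PELO line with dox at 48 h, with 2.76, 2.799 and 2.78 in its libraries against 2.39, 2.27 and 2.27 without dox.

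**Figure D4:**
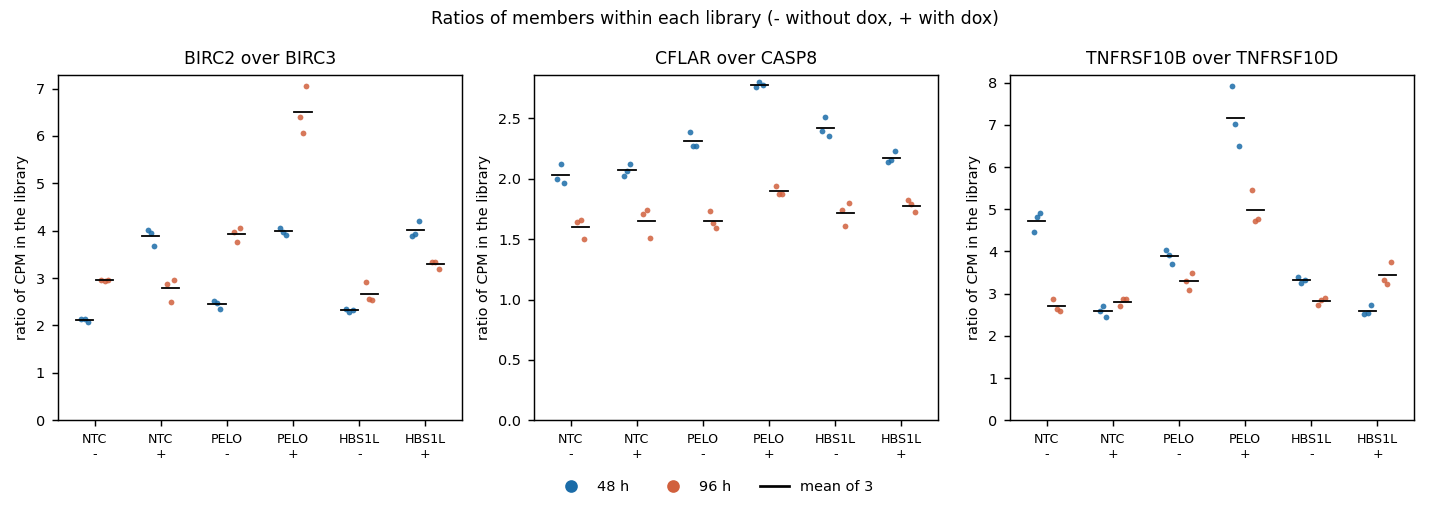
Ratio of the CPM of BIRC2 to BIRC3, CFLAR to CASP8 and TNFRSF10B to TNFRSF10D within each library (vertical axes from 0), by line and dox, with 48 h in blue, 96 h in orange and a bar at the mean of 3. The 48 h dox groups of all lines have means of 3.88, 3.99 and 4.02 for BIRC2 over BIRC3, and the PELO line with dox is highest for the other ratios within each time.

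Between 48 h and 96 h the response to dox moved upward for 8 members in the control line (12.3% of all genes), for 7 in the PELO line (22.1%), with CFLAR moving down (19.9%), and for 5 in the HBS1L line (12.2%). In the control line the largest shift was that of BIRC3, 1.42 ± 0.082 (adjusted p = 3.66e-16), which fell at 48 h and rose at 96 h. TNFRSF10B shifted by 0.90 ± 0.078 (adjusted p = 1.52e-11) there. Its untreated level in that line differed between the times, 180.1 ± 10.2 CPM at 48 h and 94.6 ± 3.77 CPM at 96 h, whereas its dox level was 97.7 ± 3.38 and 96.1 ± 2.44 CPM. These levels are set across times and so cannot be told apart from batch. The shifts of FAS (0.33 ± 0.13 (adjusted p = 0.0325)), FADD (0.21 ± 0.074 (adjusted p = 0.0179)) and CFLAR (-0.14 ± 0.058 (adjusted p = 0.0454)) in the PELO line were small, and each rested on single libraries. That of FAS was lost without replicate 2 or 3 of any group of the line except the 48 h dox group, where it was replicate 1 or 3 (adjusted p from 0.0565 to 0.135), and with DESeq2 (0.0692). That of FADD was lost without replicate 3 of the untreated or 2 or 3 of the dox libraries of 48 h, or without replicate 1 or 2 of the untreated or 1 of the dox libraries of 96 h (0.0502 to 0.116). CFLAR lost its shift without replicate 1 or 2 of the dox libraries of 48 h or of the untreated ones of 96 h, or replicate 1 of the dox libraries of 96 h (0.0516 to 0.0713). In the control line FAS, shifted by 0.35 ± 0.13 (adjusted p = 0.0395), lost its call in 7 of the 12 fits without a library of that line (0.0621 to 0.131): replicates 1 and 3 of the untreated and 2 and 3 of the dox libraries at 48 h, and replicates 1 and 2 of the untreated and 1 of the dox libraries at 96 h.

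Without dox the lines already differed at some members. The untreated PELO line lay under the untreated control line at 48 h for TNFRSF10B (-0.28 ± 0.055 (adjusted p = 0.000509)) and CASP8 (-0.11 ± 0.037 (adjusted p = 0.0463)), where 4.72% of all genes were lower. CASP8 lost that call without replicate 1 or 3 of the control line or any library of the PELO line (adjusted p from 0.0861 to 0.193). At 96 h TNFRSF10D, FADD (-0.18 ± 0.052 (adjusted p = 0.0117)) and BIRC3 were lower, beside 11.5% of all genes. FADD lost its call without replicate 1 or 3 of the control line or 1 or 2 of the PELO line (0.0573 to 0.114). The untreated HBS1L line lay under the control line at 48 h for TNFRSF10B (-0.49 ± 0.055 (adjusted p = 1.24e-08)), XIAP (-0.33 ± 0.061 (adjusted p = 3.80e-05)), CASP8 (-0.20 ± 0.037 (adjusted p = 3.80e-05)) and BIRC3 (-0.20 ± 0.056 (adjusted p = 0.00432)), beside 19.2% of all genes. At 96 h 0 of 10 members passed edgeR's test there (0.135% of all genes), and DESeq2 and limma also called 0. The labels give 1 line per guide and do not say how it was made, so a difference between untreated lines cannot be told apart from how each line was made.

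The genes around the members moved in a mixed way in the PELO line. Counts are of genes past edgeR's adjusted p of 0.05 beyond the control line. Of all genes, 22.9% rose and 24.9% fell at 48 h, and 28.7% rose and 26.0% fell at 96 h. Of 5 death ligands tested (7 listed), 1 rose and 1 fell at each time. All tested ligands but TNFSF10 lay near the floor, with means of 0.103 to 0.407 CPM over all libraries. The 1 that rose was among them. TNFSF10, which encodes TRAIL, fell in the PELO line, with 8.19 ± 0.123 CPM untreated against 4.23 ± 0.248 CPM treated at 48 h and 9.98 ± 0.7803 against 0.636 ± 0.196 CPM at 96 h, -1.73 ± 0.16 (adjusted p = 8.94e-11) and -3.33 ± 0.21 (adjusted p = 2.77e-15) beyond the control line. At 48 h the value beyond the control line also includes a rise of TNFSF10 with dox in the control line. The ligand of TNFRSF10A and TNFRSF10B thus fell in the PELO groups in which both receptors rose. Of 6 other receptors of the TNF receptor family tested (8 listed), 2 rose and 3 fell at each time. TNFRSF12A, the receptor for TWEAK, held 52.7 ± 1.59 CPM untreated and 297 ± 13.9 CPM with dox at 96 h in the PELO line, and rose beyond the control line by 2.06 ± 0.076 (adjusted p = 1.30e-22) and then 2.33 ± 0.076 (adjusted p = 6.25e-24). Of 14 receptor adaptors and complex partners tested (15 listed), 8 rose and 2 fell at 48 h, and 10 rose and 1 fell at 96 h. RBCK1, a subunit of the linear ubiquitin ligase, gave 1.86 ± 0.060 (adjusted p = 3.54e-24) at 48 h, and RIPK1, the kinase of the receptor complex, 0.94 ± 0.070 (adjusted p = 4.91e-14) at 96 h.

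Among 6 other IAP genes and IAP antagonists tested (8 listed), 1 rose and 2 fell at each time, with BIRC5 (survivin, which acts in mitosis) at -0.26 ± 0.084 (adjusted p = 0.00891) and -0.54 ± 0.083 (adjusted p = 8.22e-07). Of the 8 further caspase and apoptosome genes, 2 rose and 4 fell at 48 h, and 3 rose and 3 fell at 96 h. CASP6, an effector caspase, fell by 0.89 (adjusted p = 8.94e-09) on the log2 scale at 48 h. Of 9 regulators known to act on members, 8 rose and 0 fell at 48 h, and 5 rose and 2 fell at 96 h. At 48 h all 9 regulators fell with dox in the control line (median -0.63), where 16.0% of all genes fell. In the PELO line with dox 7 rose and 2 fell (median 0.31), beside 24.2% and 23.7% of all genes. DDIT3, a stress transcription factor known to induce TNFRSF10B, stood at 16.9 ± 2.14 CPM in untreated and 54.9 ± 1.44 CPM in treated PELO libraries of 48 h, 2.80 ± 0.11 (adjusted p = 3.45e-21) beyond the control line. That value includes the fall of DDIT3 with dox in the control line. ATF4, which acts upstream of DDIT3, gave 1.94 ± 0.091 (adjusted p = 2.24e-19) beyond the control line at 96 h. In the HBS1L line at 48 h these 6 lists had between 0 and 1 gene past the threshold in either direction, where 3.85% of all genes passed. At 96 h, where 10.7% passed, 2 adaptors rose and 4 fell, 2 regulators rose and 2 fell, and the other 4 lists had 1 call each. The list medians of the PELO response beyond the control line at 48 h were 1.13 for the regulators, 0.19 for the adaptors and between -0.56 and -0.13 for the other 4 lists, beside -0.040 over all genes. At 96 h they were 0.35, 0.52 and between -0.90 and 0.0021, beside 0.018 over all genes. The lowest median at each time was that of the death ligands, most of them near the floor.

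**Figure D5:**
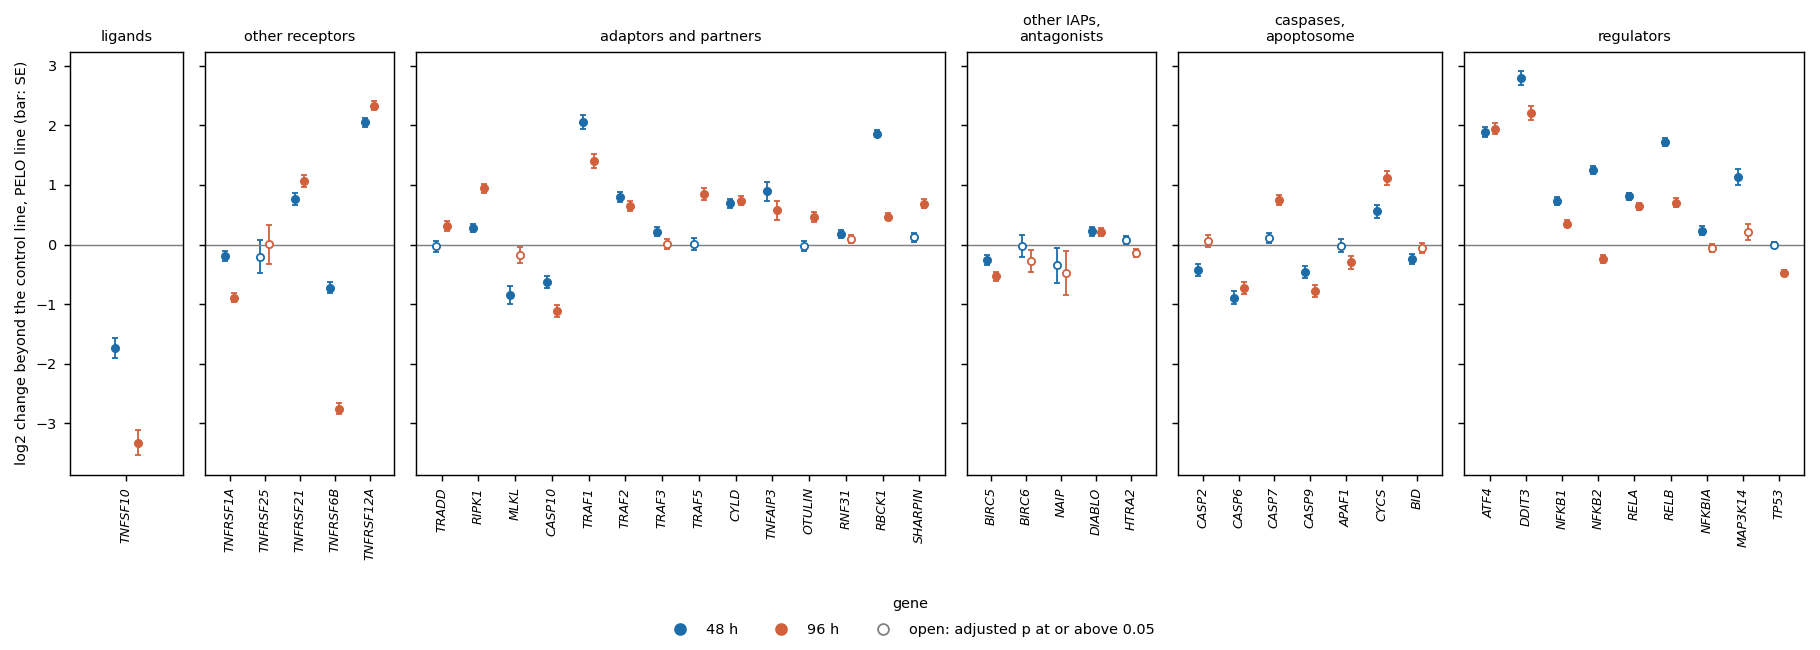
Log2 change beyond the control line in the PELO line for most genes of 6 lists around the members (horizontal axis, genes with a mean of at least 1 CPM), with 48 h in blue, 96 h in orange, bars of 1 SE and open circles where the edgeR adjusted p was at or above 0.05. TNFSF10 lies lowest at -3.33 at 96 h, and DDIT3 highest at 2.80 at 48 h.

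Over the 12 group means of log2 CPM, members differed in how far they moved together. The closest of the 45 pairs were TNFRSF10A with BIRC2 (Pearson r = 0.939) and with TNFRSF10B (0.868). The lowest r was that of TNFRSF10D with FAS (-0.29), and the one nearest 0 that of TNFRSF10A with TNFRSF10D (0.013). As a description, without a test, the genes whose course over the 12 groups was most like that of TNFRSF10B were ERN1 (r = 0.988), TRIM25 (0.982) and SENP6 (0.977). For BIRC2 they were NVL (0.991), ETS1 (0.991) and NOC3L (0.990). For BIRC3 the nearest genes were less close: UBXN4 (0.906), IBA57 (0.898) and RELB (0.891), the last a subunit of NF-kB. These 12 points share libraries and a time block among the genes compared.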

How the data were processed

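Polyadenylated RNA of 36 libraries (12 groups of 3) was sequenced, at 45356024 to 107436235 counts per library. Per the submitters' processing notes, the authors used DRAGEN, featureCounts, Subread, edgeR and limma with GRCh38.p13; their versions, strand setting and annotation are unstated. The deposited expected counts (45.6% of values above 0 are not whole) were rounded to whole numbers. The second deposited table holds log2 CPM of 17138 genes, all 10 members included, and served as an alternative.

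In R 4.3.3, edgeR 4.0.16 filtered genes (filterByExpr, minimum count 10, minimum total 15; 20767 of 61544 kept), scaled libraries by TMM and fitted 1 mean per group by robust quasi-likelihood. The 19 comparisons were contrasts: dox against no dox within a line and time, a targeted line's response minus that of the control line, PELO minus HBS1L, 96 h minus 48 h, and untreated lines. P-values were adjusted by Benjamini-Hochberg at 0.05. CPM use TMM-scaled sizes. Alternatives were RLE size factors, DESeq2 1.42.0, no low-count filter, a replicate block, limma 3.58.1 on the deposited log2 values, dox libraries alone, and each library left out. The fit was tested on simulated data.

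The members and lists were chosen with earlier results of these data known. Named genes were the members, PELO and HBS1L, the list gene with the smallest adjusted p beyond the control line at each time in the PELO line (mean of at least 1 CPM), and, for each member leading a response beyond the control line, the 3 genes (mean of at least 5 CPM) with the highest correlation over group means. A gene that this rule names is not reported here. ACTA2, AP000879.1 and the markers were named after their values were seen. Symbols came from a name table and GENCODE 29, promoters from RefSeq.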

Additional observations from a re-analysis of the deposited data

Results flagged for a closer look

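The results below differ between lines or times by an edgeR test of the difference itself (adjusted p under 0.05), and all values are differences of log2 changes. Between the PELO and HBS1L responses at 48 h the difference was 0.58 for TNFRSF10A, 0.97 for TNFRSF10B, -0.27 for TNFRSF10D, 0.45 for FAS, 0.60 for FADD, 0.15 for CASP8, 0.57 for CFLAR, 0.97 for BIRC2 and 1.05 for BIRC3. At 96 h it was 0.99 for TNFRSF10A, 0.92 for TNFRSF10B, 0.61 for TNFRSF10D, 0.54 for FAS, 0.83 for FADD, 0.14 for CFLAR, 1.48 for BIRC2, 1.06 for BIRC3 and 0.26 for XIAP. BIRC3 thus differed by nearly the same amount at both times, by a fall in the HBS1L line alone at 48 h and by a rise in the PELO line with a fall in the HBS1L line at 96 h.

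Between the responses at 96 h and 48 h the control line differed by 0.46 for TNFRSF10A, 0.90 for TNFRSF10B, 0.35 for FAS, 0.24 for CASP8, 0.26 for CFLAR, 0.45 for BIRC2, 1.42 for BIRC3 and 0.33 for XIAP. The PELO line differed by 0.69 for TNFRSF10A, 0.57 for TNFRSF10B, 0.86 for TNFRSF10D, 0.33 for FAS, 0.21 for FADD, -0.14 for CFLAR, 0.77 for BIRC2 and 0.75 for BIRC3. The HBS1L line differed by 0.28 for TNFRSF10A, 0.62 for TNFRSF10B, 0.29 for CFLAR, 0.25 for BIRC2 and 0.74 for BIRC3. Time cannot be told apart from the block of library numbers.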

How the results depend on the processing

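Of 102 member results past the threshold, 15 lost their call in at least 1 fit that left out a library, and none reversed except with dox libraries alone. Counts of called members moved in these cases, among others. With dox libraries alone 4 members passed in the HBS1L response beyond the control line at 48 h (1 otherwise) and 4 at 96 h (2 otherwise), and CASP8, CFLAR and XIAP gained a call in the PELO response at 96 h. Many more of all genes also passed in that setting for the HBS1L line, with counts in the last paragraph. Untreated PELO against control at 48 h gave 1 in place of 2 with RLE size factors, no low-count filter or the replicate block. In all, 5 member calls were lost without the filter. Besides that of CASP8 in untreated PELO, they were CASP8 at 48 h (adjusted p = 0.390) and CFLAR at 96 h (0.185) in PELO minus HBS1L. The others were CFLAR in the PELO response between times (0.525) and FAS in that of the control line (0.0882). With a library left out, PELO minus HBS1L at 96 h gave 7 to 9. Leaving out single libraries gave 1 to 3 in the control line at 96 h, 0 to 1 in the HBS1L response beyond the control line at 48 h, 5 to 8 in the PELO response between times and 1 to 2 in untreated PELO against control at 48 h. Replicate numbers did not pair the samples (median correlation of same-numbered deviations -0.037 at 48 h and -0.045 at 96 h). The replicate block ended 2 member calls, CASP8 in untreated PELO at 48 h (adjusted p = 0.0581) and FAS in the control response between times (0.0540).

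Signs turned for some values. Near 0, TNFRSF10D in the control line at 48 h was 0.0060 without the filter, CASP8 in the PELO line at 96 h was 0.000490 with RLE, 0.021 without the filter and 0.0012 with DESeq2, and FADD in the HBS1L line at 48 h was 0.00045 with limma. With dox libraries alone 2 called results turned: BIRC3 was -0.077 in the PELO response beyond the control line at 96 h (0.41 otherwise), and TNFRSF10B -0.17 in the HBS1L response at 48 h (0.31 otherwise). In the HBS1L response at 48 h FAS was 0.19, CASP8 -0.0729, BIRC3 -0.17 and XIAP -0.15, and at 96 h TNFRSF10A was 0.044, FAS 0.0091 and CFLAR 0.082. That setting ignores differences between untreated lines.

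Leaving out single libraries gave ranges across 0 for results that passed no threshold: in the control line, TNFRSF10D -0.022 to 0.023 at 48 h and TNFRSF10B -0.0017 to 0.049 at 96 h; in the PELO line, XIAP -0.020 to 0.079 at 48 h and CASP8 -0.041 to 0.011 at 96 h. In the HBS1L line FADD ranged from -0.018 to 0.00999 at 48 h and from -0.069 to 0.041 at 96 h, and CASP8 from -0.0098 to 0.029 at 96 h. Beyond the control line the HBS1L line gave FAS -0.079 to 0.040 and BIRC3 -0.0010 to 0.085 at 48 h, and TNFRSF10B -0.019 to 0.080 and CFLAR -0.077 to 0.0098 at 96 h.

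Counts over all genes moved by over 1.5 times in 4 comparisons. The control line at 96 h called 1561 genes, and 481 to 2141 with a library left out. The HBS1L response beyond the control line called 799 at 48 h (484 to 823; 4791 with dox libraries alone) and 2228 at 96 h (1391 to 2421; 6185 with dox libraries alone). Untreated HBS1L against control at 96 h called 28 (12 to 42; 46 with DESeq2, 95 without the filter). Every member had at least 195 counts in each library, and which of depth and the 3 libraries per group limits the calls was not tested.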
